A study of Mus musculus with 4 samples.

Results

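Capillary endothelial cells line the smallest vessels of the brain, where oxygen and nutrients pass from blood to tissue. They are held together by tight junctions and carry glucose, amino acid and lipid transporters, and with pericytes and astrocyte endfeet they form the blood-brain barrier. Along a brain vessel the endothelial program changes by degrees from artery through capillary to vein, so capillary cells are marked by transporter genes and by low levels of arterial and venous genes rather than by a gene of their own. Capillary endothelial cells were examined here in single-cell RNA sequencing of whole brains from 4 male C57BL/6J mice, 1 mouse for each combination of 2 ages and 2 diets. By the study's methods the adult mice came from an in-house colony and the aged mice from the National Institute on Aging. The source of the mice therefore cannot be told apart from age. The diets started at 3 to 4 months of age in adult mice, started at 23 to 24 months in aged mice, and lasted 8 weeks. Each diet contained 1% cellulose with either 0% or 5% inulin, a fermentable fiber. No mouse carried an engineered allele or received another agent. Each age is therefore represented by 2 mice on different diets and each diet by 2 mice of different ages, and the effect of a diet within an age could not be tested. Throughout, values by mouse are given in the order adult 0%, adult 5%, aged 0% and aged 5% inulin.

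The cells were chosen by measured transcripts and not by a sort. Of 36876 barcodes, 27256 were kept with 1000 to 22005 unique molecular identifiers (UMIs, each standing for 1 captured transcript) and at most 15.8% mitochondrial UMIs. A cell was then defined by at least 20 UMIs per 10000 from *Cldn5*, *Flt1*, *Pecam1* and *Ly6c1* together. It had at most 4 UMIs of the mural genes *Vtn*, *Kcnj8* and *Abcc9* and under 15 UMIs per 10000 of *C1qa*, *C1qb* and *C1qc*. It had at most 1 UMI of the arterial genes *Bmx*, *Gkn3*, *Sema3g*, *Vegfc* and *Mgp*, at most 1 of the venous genes *Slc38a5*, *Nr2f2*, *Vcam1* and *Lcn2*, and at most 1 of *Plvap*, the gene of fenestrated vessels. This left 3475 cells, with 804, 1132, 608 and 931 in the 4 mice. Before the arterial, venous and *Plvap* limits there were 8091 endothelial cells. Near the lower limit, 13 cells with 18 to under 20 marker UMIs per 10000 fell outside it and 6 with 20 to under 22 fell inside it. The nearest cells on either side had 19.9 and 20.2. All genes of this rule served to choose the cells, and their levels are given only as a description.

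The median capillary cell held 4631, 4526, 4698.5 and 4730 UMIs in the 4 mice, so depth per cell was close between them. Endothelial cells that exceeded an arterial or venous limit were compared in parallel. Arterial cells (2429) had 2 or more arterial UMIs, venous cells (1288) had 2 or more venous UMIs, and 17693 non-endothelial cells of all kinds had under 20 endothelial marker UMIs per 10000. The arterial, venous and *Plvap* limits are in UMIs and not in a share, so they keep shallower cells. Over all mice the median was 4636 UMIs in capillary cells and 7195 in the endothelial cells that these limits left out. It was 6774 in non-endothelial cells. Of the capillary cells 37.5% held 1 arterial UMI and 27.8% held 1 venous UMI of the selection. The median mitochondrial share was 4.98%, 5.24%, 6.01% and 6.14%, higher in both aged mice. Scrublet, which scores barcodes against simulated doublets, marked 60 capillary cells (1.73%), with 10, 17, 6 and 27 in the 4 mice. Of 192 barcode sequences found in more than 1 mouse, 36 capillary cells carried one, and only 4 of these sequences belonged to capillary cells in more than 1 mouse.

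The label was checked against genes that the rule did not use. The 18 further pan-endothelial genes summed to 11729 CPM (UMIs per 1000000 UMIs of the same cells of a mouse) in capillary cells and to 345 CPM in non-endothelial cells. *Cdh5*, which encodes VE-cadherin, averaged 369 CPM in capillary cells and 12.3 CPM in non-endothelial cells, and *Tek*, the angiopoietin receptor, averaged 306 and 3.6 CPM. *Mfsd2a*, the lipid transporter of the barrier, averaged 413 CPM in capillary, 353 in arterial and 314 in venous cells. *Cxcl12* declined in the same order at 3774, 2821 and 1679 CPM, whereas *Tfrc*, the transferrin receptor, and *Slc16a1*, a lactate carrier, were low in arterial cells (238 and 211 CPM) and higher in venous (664 and 617) than in capillary cells (518 and 604). Of the 14 genes of the capillary list, 7 had their highest mean among the endothelial groups in capillary cells and 7 in venous cells. The latter included *Car4*, at 604 CPM in capillary and 926 in venous cells, *Itih5* (1131 and 1515), *Itm2a* (3286 and 4035) and *Slc22a8* (355 and 439). Arterial genes outside the rule were lower in capillary than in arterial cells, with *Efnb2* at 28.2 and 80.6 CPM and *Stmn2* at 99.4 and 427 CPM. The venous gene *Vwf* was lower in capillary than in venous cells, at 198 and 476 CPM. The border to neighbouring vessels is gradual, and *Vwf* was at nearly the same level in capillary (198 CPM) and arterial cells (206 CPM). These means are over 4 mice and describe the rule's outcome, so no test was made.

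**Figure D1:**
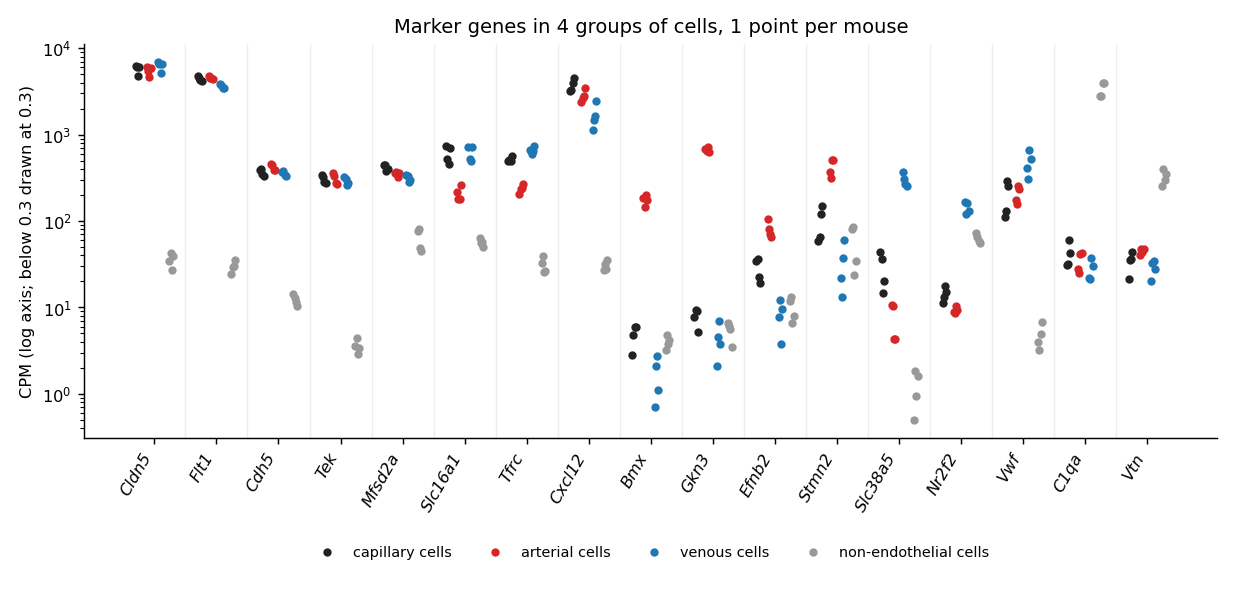
Level of 17 marker genes in capillary, arterial, venous and non-endothelial cells, in CPM on a log axis, with 1 point for each of the 4 mice. The pan-endothelial genes separate the endothelial groups from the non-endothelial cells, and capillary cells have the highest mean of *Cxcl12* and low *Bmx*, *Gkn3*, *Slc38a5* and *Nr2f2*, which the selection limited.

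Capillary cells made up 11.8%, 14.7%, 10.3% and 13.6% of the kept cells. The aged mean was 1.30 percentage points below the adult mean (11.95% ± 2.27 against 13.25% ± 2.08, SD, n = 2 mice each), which was within the spread between mice (exact two-sided permutation test, p = 0.667). With 2 mice against 2 this test cannot give a p under 0.33. Against all endothelial cells as the denominator the difference had the other sign, at 0.971 percentage points. Mice fed 5% inulin had 3.08 percentage points more capillary cells than mice fed 0% (14.14% ± 0.83 against 11.06% ± 1.01, n = 2), and the exact permutation p was 0.33, the smallest possible. Shares of dissociated cells depend on which cells survive dissociation, and this was not tested.

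To ask how age changed these cells, UMIs were summed over the capillary cells of each mouse (3944940, 5559240, 3170490 and 4849262 UMIs) and 12181 genes were tested with the quasi-likelihood test of edgeR. Genes that changed by more than 1.5-fold with an adjusted p below 0.05 are referred to as called. With age 115 genes rose (0.944% of those tested) and 88 fell (0.722%), which is 1.67% in either direction, and the median of all genes was 0.00 on the log2 scale. These counts include 4 genes of the selection (*C1qa* and *C1qc* higher, *Sema3g* and *Slc38a5* lower), without which 113 rose and 86 fell. At an unadjusted p under 0.05 there were 1982 genes. The mice are the replicates, with 2 per age and 2 residual degrees of freedom. Fewer genes were called by DESeq2, 46 higher and 41 lower.

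Of the heat shock genes 7 of 14 fell in aged capillary cells and none rose. These genes encode chaperones, which bind unfolded or stressed proteins: Hsp70 and Hsp90 proteins do the folding work, Hsp40 proteins (the Dnaj genes) deliver substrates, and the small protein Hspb1 holds substrates until they are refolded. Transcription of many such genes is driven by heat shock factor 1, which binds inverted repeats of the pentamer nGAAn. All 14 genes of the list were tested, and 0.722% of all tested genes fell. All 14 had a fold change below 0 on the log2 scale, with a median of -0.68. *Hspd1* and *Hspa5* also passed the adjusted p but not the fold limit, at -0.56 and -0.41.

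Motifs of that kind in the promoters are shown for list members that fell and for members that were not called. In the 250 bases before each RefSeq transcription start (build GRCm38.p6), 8 of the 11 list members in the table held GAANNTTC or TTCNNGAA, both of which read the same on either strand and may overlap. Either motif occurred in 12.8% of all 32851 promoters and in 14.5% of 27025 genes. The stretches below run 5′ to 3′ on the strand of the gene, and capitals mark the matches. Those that an annotated exon overlaps are cut to 30 bases. They come from chr5:149636351-149636380 on the minus strand for *Hsph1*, chr4:40722333-40722362 on the plus strand for *Dnaja1*, chr5:135887777-135887854 on the plus strand for *Hspb1*, chr1:55088053-55088082 for the promoter that *Hspe1* and *Hspd1* share (printed on the plus strand, that of *Hspe1*), and chr17:34972228-34972285 on the minus strand for *Hspa1a*.
Hsph1: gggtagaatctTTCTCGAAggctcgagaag
Dnaja1: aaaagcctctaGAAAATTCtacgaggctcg
Hspb1: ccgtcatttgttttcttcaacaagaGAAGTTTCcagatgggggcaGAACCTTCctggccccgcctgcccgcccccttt
Hspe1: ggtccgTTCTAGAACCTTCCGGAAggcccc
Hspa1a: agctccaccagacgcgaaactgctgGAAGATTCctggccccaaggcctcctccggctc

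The *Hspe1* stretch carries 3 overlapping matches and that of *Hspb1* carries 2. The stretch of *Hspa1b* is identical in sequence to that of *Hspa1a*, and *Dnajb4* held 1 match. *Dnajb1*, *Bag3* and *Hspa5* held none in this window, although *Dnajb1* fell and *Bag3* and *Hspa5* were not called. Members with a match did not all fall: *Hsph1*, *Dnaja1* and *Hspb1* were called, and *Hspe1*, *Hspd1*, *Hspa1a*, *Hspa1b* and *Dnajb4* were not. *Hsp90aa1*, *Hsp90ab1* and *Hspa8* are named only. A match describes the sequence and does not show that a factor binds there.

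*Hsph1*, an Hsp110 protein that exchanges the nucleotide of Hsp70, was at 90.9, 74.2, 18.7 and 20.3 CPM in the 4 mice. Both aged mice lay below both adult mice (the ages did not overlap for 47.4% of all tested genes), and the fall was 2.06 on the log2 scale (SE 0.14, adjusted p = 1.38e-04), the largest on the list. After each cell was thinned to 2000 UMIs, 14.4% and 13.1% of adult and 4.00% and 3.68% of aged capillary cells held an *Hsph1* UMI. In non-endothelial cells of the same mice these shares were 15.5%, 13.9%, 8.38% and 8.23%.

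The Hsp90 pair fell by about as much as the Hsp40 gene *Dnaja1*. *Hsp90aa1*, the inducible form, was at 690, 564, 296 and 308 CPM (log2 fold change -1.05, SE 0.10, adjusted p = 0.000418). *Hsp90ab1*, the constitutive form, was at 2490, 2185, 1240 and 1244 CPM (log2 fold change -0.91, SE 0.08, adjusted p = 0.000348). Hsp90 acts late in folding, on kinases and hormone receptors among others. *Dnaja1* was at 748, 712, 338 and 365 CPM (log2 fold change -1.05, SE 0.08, adjusted p = 0.000219), and the other Hsp40 gene called, *Dnajb1*, was at 83.7, 80.7, 51.6 and 40.3 CPM (log2 fold change -0.86, SE 0.12, adjusted p = 0.0037). *Hspa8*, the constitutive Hsp70, was at 2160, 1964, 1145 and 1230 CPM (log2 fold change -0.80, SE 0.08, adjusted p = 0.000541). *Hspb1* was at 1879, 1691, 890 and 1124 CPM (log2 fold change -0.82, SE 0.11, adjusted p = 0.00242).

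The stress-inducible Hsp70 genes did not follow. *Hspa1a* was at 481, 367, 216 and 458 CPM, so the aged mouse fed 5% inulin lay between the adult mice (log2 fold change -0.32, adjusted p = 0.571). *Hspa1b*, whose transcript is nearly identical and shares reads with it, was at 207, 170, 105 and 181 CPM (adjusted p = 0.365). The mitochondrial pair *Hspd1* and *Hspe1* was lower in both aged mice without passing both limits, at -0.56 and -0.41 on the log2 scale. *Hspa5*, the chaperone of the endoplasmic reticulum, was at 286, 269, 208 and 210 CPM. The co-chaperone gene *Bag3* and *Dnajb4* changed least, at -0.17 and -0.20 with adjusted p of 0.539 and 0.508.

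**Figure D2:**
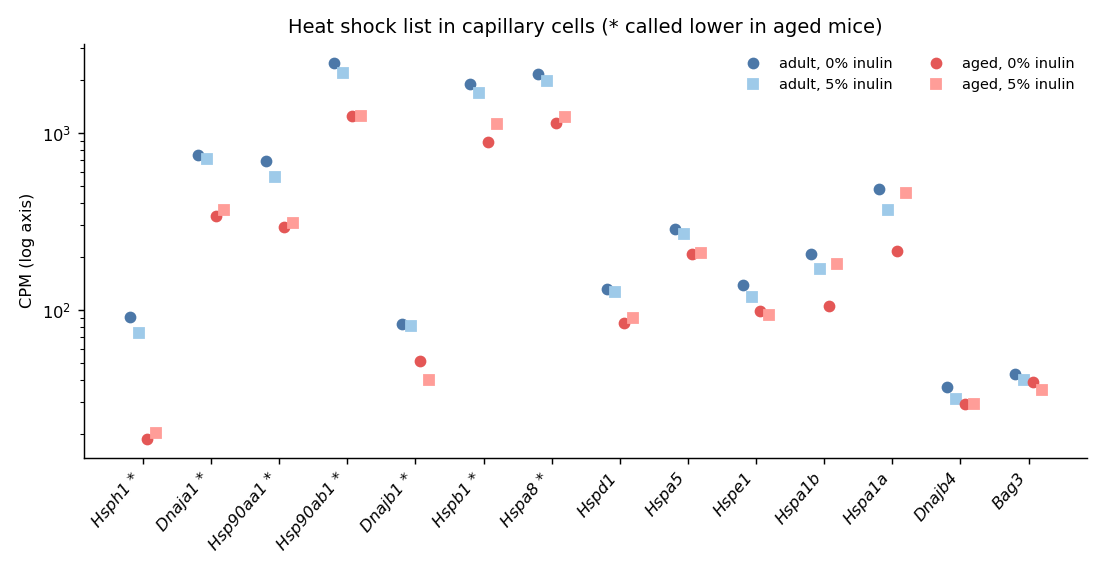
Level of the 14 heat shock genes in capillary cells of each mouse, in CPM on a log axis, with circles for 0% and squares for 5% inulin, and an asterisk for the 7 genes called lower in aged mice. Both adult mice lie above both aged mice for all 7, whereas *Hspa1a* and *Hspa1b* overlap because of the aged mouse fed 5% inulin.

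The fall was spread over the cells. After thinning, the median capillary cell held 18 and 16 heat shock UMIs in the adult mice and 9 and 10 in the aged mice. The 10th to 90th percentiles were 11 to 28 and 9 to 25 in adult mice and 5 to 15 and 5 to 17 in aged mice. The 7 calls were made under each of the 13 alternative settings, which called 7 to 10 members. The mitochondrial share of UMIs was higher in the aged mice, by cell medians given above, and its part in the fall was not tested. Chaperone and immediate early genes also respond to dissociation and handling, and with no date given for any mouse a difference in handling between mice cannot be told apart from age.

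Some other called genes, chosen from those that fell after their values were seen and from no fixed list, encode proteins known to work with chaperones, and how many such genes did not fall was not counted. *Stip1*, which bridges Hsp70 and Hsp90, was at 85.5, 73.0, 38.0 and 40.5 CPM (log2 fold change -1.0, adjusted p = 0.00116). *Serpinh1*, the collagen chaperone Hsp47, was at 203, 192, 108 and 122 CPM (log2 fold change -0.77, adjusted p = 0.000857). *Fkbp4*, *Ahsa1*, *Ahsa2*, *Chordc1* and *Cacybp*, most of them Hsp90 co-chaperones, fell by 0.71 to 0.86 on the log2 scale. *Cirbp* and *Rbm3*, chosen after their values were seen, encode cold-inducible RNA-binding proteins. *Cirbp* was at 27.0, 37.5, 85.4 and 85.4 CPM and rose by 1.38 (SE 0.14, adjusted p = 0.000427). *Rbm3* was at 183, 192, 342 and 333 CPM and rose by 0.85 (SE 0.08, adjusted p = 0.000348).

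Age effects of the heat shock genes in capillary cells were set beside those in other cells of the same mice. Arterial cells had 8 and venous cells 7 of the 14 genes called lower, with medians of -0.62 and -0.66, against 0.728% and 0.862% of all genes tested in those cells. In non-endothelial cells 1 was called lower, against 2.32% of all, and the median was -0.30. The difference of the age effects was tested as an interaction with the mouse as a block. Each such test used 8 sums from 4 mice. Its very small p values, here and below, rest on spread pooled over genes and not on many mice. None of the 14 differed from arterial or venous cells, where 0.0543% of 12901 and 0.267% of 12363 genes differed in all. Against non-endothelial cells 6 of 14 fell more in capillary cells, where 3.35% of 19063 genes differed. That count was 3 after thinning, 4 without the adult mouse fed 5% and 4 without the aged mouse fed 0%, where the age effect of 1 gene was higher in capillary cells. *Hsph1* fell by 2.06 in capillary and by 0.74 in non-endothelial cells, a difference of -1.38 (SE 0.14, adjusted p = 7.59e-14). *Dnaja1*, *Hsp90aa1*, *Hsp90ab1*, *Dnajb1* and *Hspb1* differed by -0.60 to -0.69. *Hspa8* had a difference of -0.53 (adjusted p = 0.00583), just short of the fold limit.

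Outside the heat shock list, named genes that fell included *Auts2*, *Atf3*, *Bcl6b*, *Serpine2* and *Carhsp1*. *Auts2*, a nuclear protein of a Polycomb complex, was at 42.6, 44.4, 13.9 and 10.4 CPM, a fall second only to that of *Hsph1* among the named genes that were called (log2 fold change -1.87, SE 0.16, adjusted p = 0.000295). *Atf3*, a transcription factor of the stress response, was at 91.9, 69.7, 28.2 and 28.0 CPM (log2 fold change -1.51, SE 0.15, adjusted p = 0.000427). In non-endothelial cells *Atf3* was at 83.7, 100.3, 204 and 161 CPM and rose by 1.12, so the age effects had opposite signs and differed by -2.64 (SE 0.14, adjusted p = 3.64e-32). *Bcl6b*, an endothelial transcriptional repressor, was at 48.7, 49.3, 22.5 and 21.5 CPM and fell by 1.16 (SE 0.12, adjusted p = 0.000643). *Serpine2*, a protease inhibitor also called protease nexin-1, was at 72.7, 57.9, 29.4 and 28.8 CPM and fell by 1.15 (SE 0.14, adjusted p = 0.00126). *Carhsp1*, a small RNA-binding protein, was at 27.3, 25.3, 10.1 and 12.3 CPM and fell by 1.20.

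Both called genes of the VEGF, angiopoietin and Notch list fell, 2 of 18 tested, against 0.722% of all tested genes. *Dll4*, the Notch ligand of arterial and sprouting endothelium, was at 93.9, 85.1, 52.8 and 47.8 CPM (log2 fold change -0.83, SE 0.10, adjusted p = 0.00189). *Efnb2*, which encodes the arterial ligand ephrin-B2, was at 35.2, 36.2, 22.5 and 19.2 CPM (log2 fold change -0.79, SE 0.14, adjusted p = 0.0145). It was not called by DESeq2 (adjusted p = 0.245), without the aged mouse fed 5% inulin (adjusted p = 0.0745), after thinning (log2 fold change -0.58, adjusted p = 0.197) or without the vessel limits (-0.44, adjusted p = 0.0574). The other 16 of 18 tested genes of that list were not called. *Kdr*, the main VEGF receptor, was at 466, 413, 422 and 486 CPM and did not pass (adjusted p = 0.854). Of 10 tested arterial genes outside the selection, *Dll4* and *Efnb2* fell and *Stmn2* rose, against 0.722% and 0.944% of all tested genes. *Stmn2*, a microtubule regulator known mainly from neurons, was at 59.97, 65.1, 122 and 153 CPM (log2 fold change 1.14, SE 0.11, adjusted p = 0.00045). It fell by 1.38 in non-endothelial cells, and the age effects differed by 2.49 (SE 0.11, adjusted p = 5.62e-37). The arterial list thus moved in both directions.

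*Kcnj2*, the inward rectifier potassium channel of brain capillaries that senses potassium released by active neurons, was at 24.8, 29.0, 11.7 and 13.8 CPM (log2 fold change -1.07, SE 0.17, adjusted p = 0.00929), a low-count gene. It was not called by DESeq2 (adjusted p = 0.106), after thinning (adjusted p = 0.0516), without the vessel limits (log2 fold change -0.55, adjusted p = 0.0615) or in cells with no C1q UMI (-0.79, adjusted p = 0.149). The flow-responsive factors *Klf2* and *Klf4* were lower in both aged mice but under the fold limit. *Klf2* was at 2340, 2050, 1612 and 1718 CPM (log2 fold change -0.40, adjusted p = 0.0362). *Klf4* was at 776, 740, 480 and 594 CPM (log2 fold change -0.49, adjusted p = 0.0308). Of the 13 genes for flow and vessel tone, *Kcnj2* was the only one called, against 0.722% of all tested genes that fell. *Edn1*, from the same list, passed the adjusted p alone in the other direction (log2 fold change 0.36, adjusted p = 0.047). *Ivns1abp*, from the capillary marker list, was at 254, 236, 167 and 127 CPM and fell by 0.75 (SE 0.11, adjusted p = 0.00597). It was under the fold limit without the aged mouse fed 5% (-0.55) and in cells with no C1q UMI (-0.58).

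Several genes that fell also mark the choroid plexus epithelium, which makes cerebrospinal fluid. All 6 genes of the choroid plexus list were called lower, against 0.722% of all tested genes, with a median log2 fold change of -1.08. DESeq2 called 2 of them, and the median was -0.88 without the adult mouse fed 0%. Arterial cells had 6 and venous cells 3 called lower, against 0.728% and 0.862% of all genes tested there. Non-endothelial cells had 0, against 2.32%, with a median of -0.27. The age effect was lower in capillary than in non-endothelial cells for 6 genes (4 after thinning), where 3.35% of all genes differed. *Ttr*, the thyroxine carrier secreted by that epithelium, was at 8906, 6331, 3712 and 4423 CPM in capillary cells (log2 fold change -0.90, SE 0.13, adjusted p = 0.00539) and made up 89.9% of the list. At least 99.6% of thinned capillary cells in each mouse held a *Ttr* UMI, and so did at least 98.9% of non-endothelial cells, and the source of these UMIs was not tested. The list summed to 9842, 7158, 4095 and 4773 CPM. As a comparison, the profile of 2721 choroid plexus barcodes was scaled in each mouse to the *Ttr* level of its capillary cells, which took 3.17%, 2.32%, 1.30% and 1.61% of it. This takes all *Ttr* to come from that epithelium, so *Ttr* matches by construction. Of the other 87 genes that fell, the scaled profile reached 50% or more of the capillary level for 9, against 0.813% of all tested genes other than *Ttr*. These were *Folr1*, *Kcnj13*, *Kl*, *Clic6*, *Enpp2*, *Igfbp2*, *Atp1b1*, *Col8a1* and *1500015O10Rik*. The remaining 78 included the 7 heat shock genes, for which it reached at most 4.75%. *Slc4a10*, a bicarbonate transporter at 20.7, 20.6, 11.1 and 7.94 CPM that fell by 1.16, was at 46.0%, and it was not called by DESeq2 (adjusted p = 0.188), after thinning (0.219), without the vessel limits (0.0732) or without the aged mouse fed 5% (0.0743).

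Named genes that rose included *Vwf*, *Fmo2*, *Cyp2e1*, *Mt1* and *Mt2*. *Vwf*, von Willebrand factor, which captures platelets and in healthy brain is highest in larger vessels, was at 113, 130, 292 and 261 CPM in capillary cells. Both aged mice were above both adult mice, and the rise was 1.18 on the log2 scale (SE 0.10, adjusted p = 0.000226). After thinning, 17.1% and 17.8% of adult and 36.9% and 34.7% of aged capillary cells held a *Vwf* UMI, against 0.681% to 1.12% of non-endothelial cells. Of 8 tested coagulation genes *Vwf* alone was called, against 0.944% of all tested genes that rose. Of 9 tested venous genes outside the selection it was again the only one. In arterial cells it rose by 0.57, and the age effect was larger in capillary cells by 0.61 (SE 0.09, adjusted p = 0.00533).

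*Fmo2*, a flavin monooxygenase that oxidises foreign compounds, was at 516, 512, 1255 and 1023 CPM and rose by 1.15 (SE 0.10, adjusted p = 0.000295). Its thinned share rose from 43.1% and 45.8% of adult cells to 75.5% and 70.2% of aged cells, with 0.633% to 1.53% in non-endothelial cells. In arterial cells the rise was 1.82 and the difference was -0.69 (SE 0.10, adjusted p = 0.00963), so *Fmo2* rose less in capillary cells. *Cyp2e1*, a cytochrome P450, was at 10.5, 8.07, 26.9 and 19.8 CPM and rose by 1.33 (SE 0.22, adjusted p = 0.00968). The metallothioneins, which bind zinc and copper, also rose. *Mt1* was at 357, 382, 711 and 811 CPM (log2 fold change 1.04, SE 0.09, adjusted p = 0.000295). *Mt2* was at 69.7, 95.3, 186 and 183 CPM (log2 fold change 1.15, SE 0.12, adjusted p = 0.00059). These were the 2 called of 14 tested iron and redox genes, against 0.944% of all tested genes that rose. Both rose more than in non-endothelial cells (difference 0.64 and 0.76, adjusted p = 0.000646 and 4.33e-07).

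Signalling and growth genes among the rises were *Wnt5a*, *Ntn4*, *Lypd1*, *Rasgrf2* and *Ccnd1*. *Wnt5a*, a ligand of Wnt signalling outside the beta-catenin branch, was at 18.9, 15.2, 35.1 and 41.6 CPM (log2 fold change 1.20, adjusted p = 0.00251), and its age effect exceeded that in non-endothelial cells by 1.51. *Ntn4*, a netrin of the vascular basement membrane, was at 12.2, 14.9, 44.6 and 38.0 CPM (log2 fold change 1.57, SE 0.16, adjusted p = 0.000493). *Lypd1*, a membrane protein that binds nicotinic receptors, was at 19.1, 27.4, 84.8 and 69.3 CPM (log2 fold change 1.68, SE 0.16, adjusted p = 0.000418). These 3 genes were low in adult mice, at or under 27.4 CPM. *Rasgrf2*, an activator of Ras, was at 16.1, 10.8, 36.1 and 34.2 CPM (log2 fold change 1.42). *Ccnd1*, cyclin D1, was at 42.1, 57.9, 86.4 and 99.8 CPM (log2 fold change 0.88, adjusted p = 0.00696). *Ccnd1* was the only gene called of 14 tested on the cell cycle arrest list, against 0.944% of all tested genes that rose. Its rise does not show that the cells were arrested. Further named genes that rose were *Ankdd1b* (1.87), *Zc3h6* (1.49), *Ric3* (1.41) and the long noncoding RNA *Snhg18* (1.39), on the log2 scale, with all 4 at or under 27.2 CPM in every mouse. *Ccnd1* was under the fold limit without the vessel limits (0.44), *Ric3* was not called after thinning (adjusted p = 0.169) or in cells with no C1q UMI (0.0816), and *Zc3h6* was not called in the latter (0.0531).

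Immediate early genes switch on within minutes of a stimulus. Of 13 tested, *Fos*, *Fosb* and *Egr1* rose and *Atf3* fell, against 0.944% and 0.722% of all tested genes, and the alternative settings called 2 to 5 higher and 1 to 3 lower. *Fos* was at 29.1, 30.6, 81.0 and 68.5 CPM (log2 fold change 1.31, adjusted p = 0.000373), and a single cell held 31.2% of its UMIs in the aged mouse fed 0%. *Fosb* was at 7.15, 11.6, 33.9 and 32.0 CPM (log2 fold change 1.75, adjusted p = 0.00103), with 39.3% from a single cell in that mouse. *Egr1*, at 18.1, 12.2, 30.1 and 27.1 CPM (log2 fold change 0.94, adjusted p = 0.0304), was not called by DESeq2 (adjusted p = 0.247), without the adult mouse fed 5% (adjusted p = 0.127) or after thinning (adjusted p = 0.302). *Ptgs2*, the inducible cyclooxygenase, was at 2.81, 4.30, 21.2 and 15.9 CPM (log2 fold change 2.30, SE 0.27, adjusted p = 0.00126).

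The largest rise among the named genes was that of an immunoglobulin gene. *Igkc*, the constant region of the kappa light chain made by B cells and plasma cells, was at 4.85, 2.15, 65.8 and 45.3 CPM (log2 fold change 4.04, SE 0.29, adjusted p = 1.38e-04). In non-endothelial cells it was at 21.0, 35.5, 1239 and 1085 CPM. After thinning, 12.4% and 6.50% of aged capillary cells held an *Igkc* UMI, against 12.0% and 5.80% of non-endothelial cells. In venous cells *Igkc* rose by 1.68, less than in capillary cells (difference 2.29, adjusted p = 0.0108), and the source of these UMIs was not tested. *Ccl5*, a chemokine of T and NK cells, was at 1.28, 4.30, 18.7 and 18.2 CPM, but a single cell held 67.8% and 60.9% of its UMIs in the aged mice. A microglial profile was scaled to the C1q level of capillary cells, so the C1q genes match by construction. The selection itself capped that level, so the scaled values are a description only. Of the other 113 genes that rose it reached 50% or more for *Trem2* and *Ccl4*, against 0.435% of all tested genes outside C1q. *Trem2* was not called by DESeq2 (adjusted p = 0.251), without the adult mouse fed 0% (0.0543) or in cells with no C1q UMI (0.343). The share of capillary cells without a C1q UMI was 59.8%, 63.8%, 41.4% and 49.1%, lower in both aged mice. Cells without one gave 80 genes higher and 67 lower.

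Among genes of antigen presentation the H2-Q genes stood apart. *H2-Q7*, a nonclassical class I gene at chr17:35439155-35443773, was at 15.6, 43.0, 265 and 136 CPM (log2 fold change 2.67, SE 0.35, adjusted p = 0.00242), and DESeq2 gave an adjusted p of 0.0561. *H2-Q6*, at chr17:35424850-35430055, was at 6.63, 14.5, 109 and 56.6 CPM (log2 fold change 2.85, SE 0.33, adjusted p = 0.00116). The H2-Q genes are near-identical copies that can share reads, so their split is uncertain. The thinned share of cells with an *H2-Q7* UMI was 2.64%, 6.53%, 37.3% and 22.7% in capillary and 2.63%, 3.38%, 9.89% and 13.2% in non-endothelial cells. *H2-Q7* and *H2-Q6* were the 2 called of 17 tested genes of class I presentation and peptide loading, against 0.944% of all tested genes that rose. DESeq2 called 1 of the 17. The median log2 fold change of the list was 0.23, and it was -0.02 without the adult mouse fed 0% and 0.54 without the adult mouse fed 5%. *H2-K1*, a classical class I gene, was at 513, 960, 1147 and 1029 CPM, and *H2-D1* at 825, 1307, 1475 and 1360 CPM. For both, the adult mouse fed 0% inulin was low and the other 3 mice were close together, and neither passed (adjusted p = 0.209 and 0.234). *B2m*, the shared light chain, was at 707, 1112, 1239 and 1089 CPM, with the same mouse low.

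**Figure D3:**
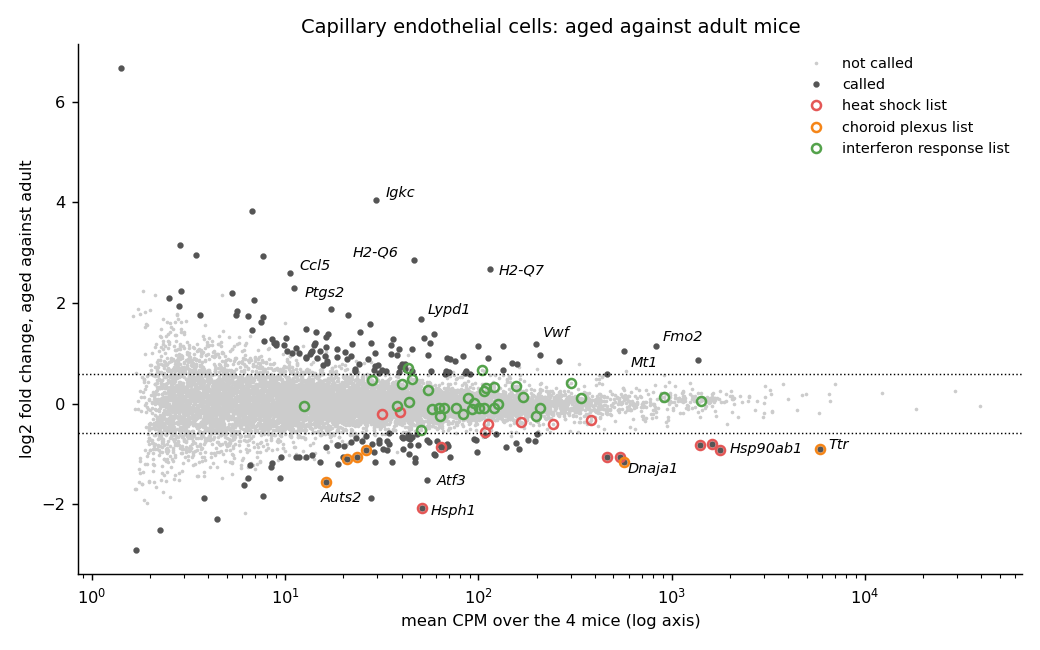
Log2 fold change of aged against adult mice in capillary cells against the mean level in CPM (log axis), with 1 point for each of 12181 genes, dark points for called genes and dotted lines at a fold change of 1.5. Heat shock and choroid plexus genes (open circles) lie below 0 and the interferon response genes lie around 0.

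No gene of the interferon response list, genes which cells switch on against viruses and in inflammation, passed in capillary cells. Of 34 tested, 0 were called by edgeR, with a median log2 fold change of 0.02, 18 above 0 and 16 below 0. At an unadjusted p under 0.05 there were 12 of the 34, against 1982 of all 12181 tested genes, and DESeq2 called 0. Across the 13 alternative settings at most 3 were called higher and at most 1 lower. In non-endothelial cells of the same mice 31 of the 34 rose, against 4.53% of all genes tested there, with a median of 1.53. The age effect was lower in capillary cells for 32 of 34 genes by the interaction test, against 3.35% of all genes that differed in either direction. *Ifit1*, which blocks translation of viral RNA, was at 146, 179, 179 and 179 CPM in capillary cells and at 11.6, 12.1, 88.0 and 70.5 CPM in non-endothelial cells (difference -2.76, SE 0.12, adjusted p = 6.78e-40). *Ifi44* was at 38.8, 39.2, 31.3 and 43.0 CPM in capillary and 1.46, 1.09, 19.5 and 20.4 CPM in non-endothelial cells, a difference of -4.19 (SE 0.21, adjusted p = 5.43e-34). *Usp18*, which restrains interferon signalling, differed by -2.58, and *Iigp1*, an immunity-related GTPase, by -2.62.

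The starting levels differed as well. In adult mice 31 of the 34 genes were higher in capillary than in non-endothelial cells in each mouse, with a median ratio of 4.03, against 39.4% of all tested genes and a median ratio of 0.935, and the exceptions were *Ifitm1*, *Lgals3bp* and *Ifi27l2a*. After thinning, the median capillary cell held 9, 10, 9 and 11 UMIs of the list in the 4 mice. Class I presentation had the same contrast, with 14 of 17 genes higher in aged non-endothelial cells (median 1.23, against 0.23 in capillary cells), where 4.53% of all genes rose. Of the 17 age effects 13 were lower in capillary cells, and after thinning 7 were lower and 1 was higher. The median difference was -0.88, and -0.61 without the adult mouse fed 5%. Arterial cells had 1 interferon gene higher and 1 lower, where 1.06% and 0.728% of all tested genes were. Venous cells had 6 higher with a median of 0.31, where 0.721% of all tested genes were higher. None of the 34 differed between capillary and arterial or venous cells. Against venous cells 1 gene of the list was lower in capillary cells with RLE size factors, another scaling, and 1 to 4 with 1 mouse left out (3 without the adult mouse fed 5% and 4 without the aged mouse fed 0%), and against arterial cells 1 was higher without the aged mouse fed 5%. Non-endothelial cells are a mixture whose makeup also moved, with the T and NK cell list at 258, 321, 618 and 832 CPM, and its part in their rise was not tested. Some interferon-inducible genes outside the list, named after their values were seen, did rise in capillary cells. *Ifi203* and *Mndal*, which are neighbours, rose by 1.28 and 1.17 (adjusted p = 0.000427 and 0.00543), and *Oas2* and *Plscr1* by 1.16 and 0.63 (adjusted p = 0.0484 and 0.037). *Ifi204* and *Ifi211* rose by 2.25 and 2.95 (adjusted p = 0.0469 and 0.0128), both from at most 1.02 CPM in adult mice.

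**Figure D4:**
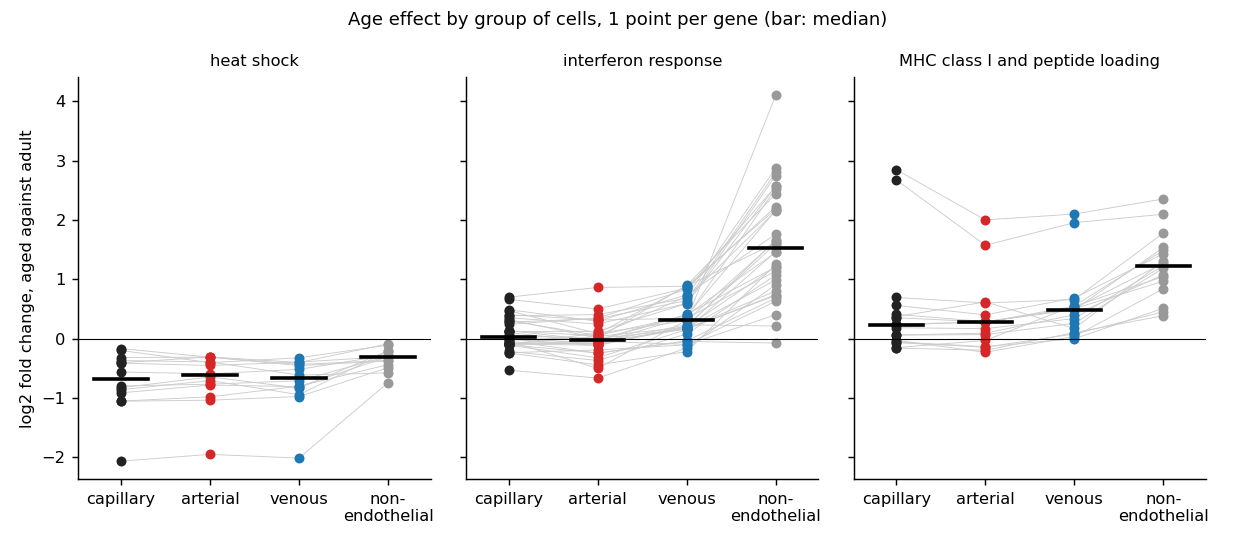
Log2 fold change of aged against adult mice for the tested genes of 3 lists in capillary, arterial, venous and non-endothelial cells, with 1 point per gene, lines joining the same gene and a bar at the median. The heat shock genes lie lowest in the endothelial groups (medians -0.68, -0.62 and -0.66), and the interferon genes lie around 0 in capillary cells and at a median of 1.53 in non-endothelial cells.

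Few genes of the barrier itself passed the test. None of 17 tested junction genes was called, and their log2 fold changes lay between -0.34 and 0.32, with 5 at an unadjusted p under 0.05. *Cldn5*, the main tight junction claudin and a gene of the selection, was at 6315, 6010, 4780 and 6127 CPM, and *Ocln*, occludin, was at 386, 375, 384 and 377 CPM. None of 25 tested genes of the solute carrier list was called, again with 5 at an unadjusted p under 0.05. Over all 12181 tested genes 1982 had such a p. DESeq2 called no gene of either list, and after thinning edgeR called 1 gene of the solute carrier list lower. Some solute carriers outside the list, named after their values were seen, were called. *Slc38a5*, a gene of the selection, *Slc4a10* and *Slc15a2* (mean 8.57 CPM) were lower. *Slc9b2* (mean 5.32 CPM) and *Slc26a10* were higher. *Slc2a1*, the glucose transporter of the barrier, was at 2764, 2996, 3317 and 3039 CPM (log2 fold change 0.14, SE 0.08, adjusted p = 0.409). *Slco1a4*, an organic anion carrier, was at 2938, 3070, 3158 and 2925 CPM (0.02, SE 0.07). *Mfsd2a* was at 444, 439, 377 and 401 CPM (-0.18, SE 0.08). The zinc carriers *Slc30a1* and *Slc39a10* and the anion carrier *Slco2b1* passed the adjusted p alone, at -0.57, -0.45 and -0.43.

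The efflux pumps and receptor-mediated transport genes gave the same picture. *Abcb1a*, P-glycoprotein, was at 1405, 1328, 1501 and 1288 CPM (0.03, SE 0.09) and *Abcg2* at 1337, 1359, 1338 and 1228 CPM (-0.07, SE 0.08). None of 7 tested genes of the ABC transporter list was called. *Abcg3*, outside that list and named after its values were seen, was called higher at a mean of 6.70 CPM (1.46, adjusted p = 0.0419). *Tfrc* was at 496, 509, 500 and 579 CPM, and none of 16 tested transcytosis genes was called. Insulin and growth factor receptors belong to that list, with *Igf1r* at 2460, 2355, 2127 and 1870 CPM (-0.27, adjusted p = 0.135). None of 21 tested genes of Wnt and beta-catenin signalling was called (the list does not hold *Wnt5a*), including *Lef1* (574, 525, 490 and 510 CPM) and *Axin2*, both targets of the beta-catenin signal that maintains the barrier. None of 18 pan-endothelial, 18 basement membrane or 16 TGF-beta and BMP genes was called, and the same held for 68 nuclear genes of the respiratory chain, 13 of adhesion and inflammation, 7 of lipid handling, 5 of class II presentation and 5 of fenestrated vessels. *Bmpr1a*, outside the TGF-beta and BMP list and named after its values were seen, was called higher (1.04, adjusted p = 0.0389). A p that misses the threshold does not show that a level stayed the same. With 2 mice per age, changes under 1.5-fold were not called by design.

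Of 14 tested genes on the capillary marker list *Ivns1abp* was the only one called, against 0.722% of all tested genes that fell. Some genes passed the adjusted p with a smaller change. *Car4*, the carbonic anhydrase on the capillary surface, was at 745, 664, 502 and 516 CPM (log2 fold change -0.47, adjusted p = 0.0162). *Cxcl12*, a chemokine, was at 3268, 3285, 3990 and 4633 CPM (log2 fold change 0.40, adjusted p = 0.0312). The basement membrane genes *Col4a1*, *Lamc1*, *Agrn* and *Sparc* were lower by -0.36 to -0.50. Of 13 tested glycolysis genes none was called. *Tpi1*, *Pkm*, *Aldoa* and *Gapdh* passed the adjusted p alone, at 0.56, 0.52, 0.49 and 0.38 on the log2 scale, and 3 of the 13 had a fold change below 0.

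**Figure D5:**
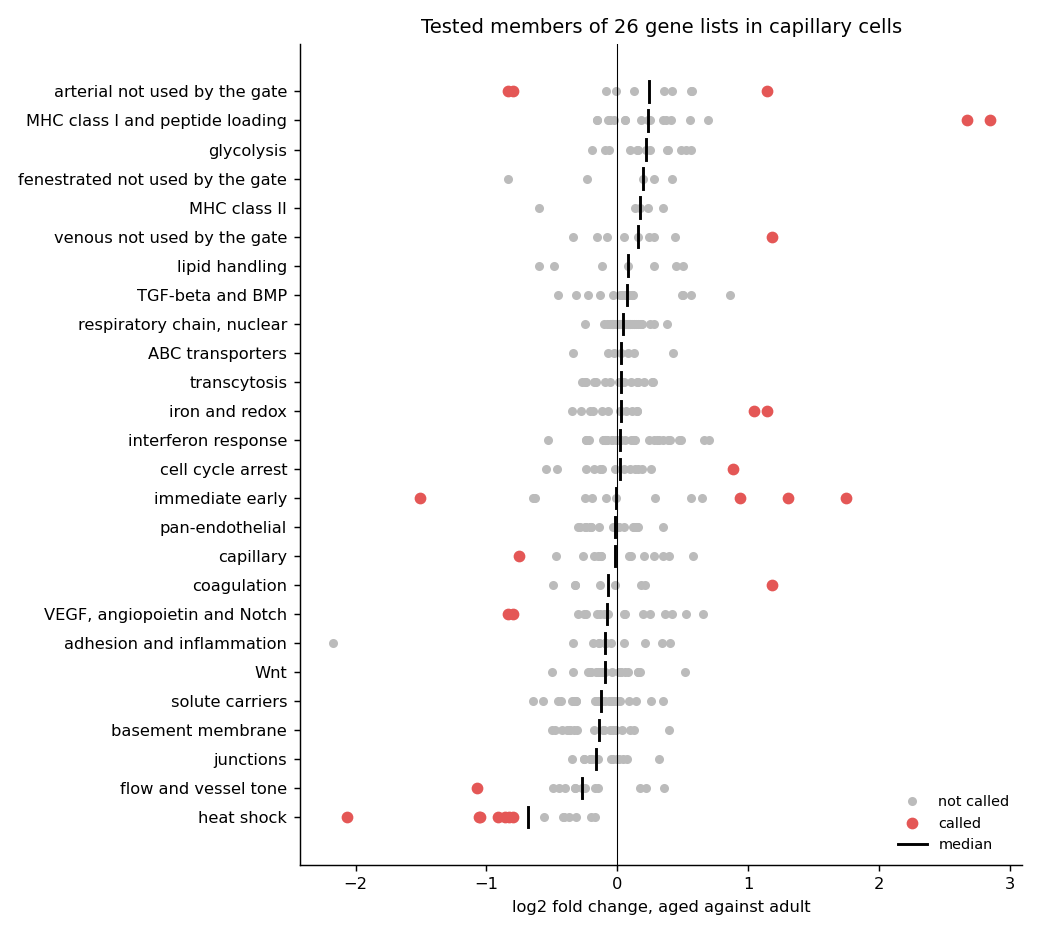
Log2 fold change of aged against adult mice for each tested gene of 26 lists in capillary cells, with called genes in red and the median of each list as a bar. The heat shock list lies farthest below 0 (median -0.68), and the junction, solute carrier and Wnt lists hold no called gene.

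Genes called in capillary cells were then looked up in the other cells of the same mice. Of the 115 genes that rose, 58 were called higher in arterial, 46 in venous and 32 in non-endothelial cells, where 1.06%, 0.721% and 4.53% of all tested genes were. Of the 88 that fell, 48, 33 and 13 were called lower, where 0.728%, 0.862% and 2.32% of all tested genes were. The age effect itself differed from arterial cells for 3 of the 115 and 0 of the 88, from venous cells for 3 and 0, and from non-endothelial cells for 52 and 47. Of all genes tested 0.0543%, 0.267% and 3.35% differed. The 115 and 88 were chosen by their change in capillary cells, which favours larger effects there, so these counts of differences are a description only. The median of the 115 was 1.05 in capillary and 0.76, 0.78 and 0.33 in arterial, venous and non-endothelial cells. The endothelial groups come from the same libraries, and their cells were split by low counts of a few genes. Whether they share background RNA was not tested. Without the arterial, venous and *Plvap* limits, endothelial cells as a whole gave 209 genes higher and 129 lower with age. Of the selection's own genes, which are a description only, *Slc38a5* was at 44.7, 36.7, 14.9 and 20.3 CPM and *Sema3g* at 18.9, 17.9, 10.4 and 7.94 CPM, both lower in aged mice. The share of all endothelial cells with an *Slc38a5* UMI was 30.4%, 29.5%, 19.4% and 22.2%, lower in both aged mice. For *Lcn2* it was 2.81%, 4.48%, 6.25% and 7.68%, and for *Vcam1* 16.3%, 16.7%, 17.2% and 18.1%. For *Nr2f2* it was 19.4%, 17.5%, 20.6% and 19.6%, and all of these were higher in both aged mice. In total 28.6%, 28.1%, 24.7% and 25.3% of endothelial cells exceeded the venous limit, and the part of this limit in the age effects was not tested.

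Marker lists of other cell types were summed in capillary cells. The microglia list summed to 215, 195, 297 and 212 CPM in capillary cells and to 10115 to 12537 CPM in non-endothelial cells. The T and NK cell list summed to 11.2, 20.3, 36.3 and 36.1 CPM, of which *Ccl5* was 39.1%, and was higher in both aged mice. The astrocyte list was at 471, 518, 450 and 674 CPM, against 5485 to 7916 CPM in non-endothelial cells. The list of pericytes and smooth muscle was at 539, 624, 664 and 776 CPM, 85.9% of it *Rgs5*, against 1363, 1671, 2532 and 1672 CPM in non-endothelial cells. Neuron, oligodendrocyte, fibroblast and ependymal lists stayed below 65 CPM in every mouse. Red cell genes summed to 11004, 2008, 3466 and 8054 CPM and did not follow age. No gene of these lists was at 0 in all mice. Of the microglia list *Trem2* was called and of the T and NK list *Ccl5*, and no gene was called in the lists of astrocytes, pericytes, red cells, granulocytes, neurons, oligodendrocytes, fibroblasts or ependymal cells.

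The effect of inulin was tested with age as a covariate, which leaves 1 residual degree of freedom. No gene was called by edgeR (0.0% of 12181 genes), with 482 at an unadjusted p under 0.05 and a lowest adjusted p of 0.126. DESeq2 called 0 as well, with 25 at an unadjusted p under 0.05. In edgeR the count was 12 with RLE size factors and 45 without the filter on low counts. None of the 14 heat shock genes had an unadjusted p under 0.05 for inulin, against 7 of 34 interferon genes and 0 of 17 junction genes. *H2-K1* and *B2m* were lower in the adult mouse fed 0% than in the adult mouse fed 5%, but not in the aged pair. A count of 0 with 2 mice per diet does not show that inulin left capillary cells unchanged.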

How the data were processed

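Whole brains of 4 mice were dissociated with enzymes, cleared of myelin, dead cells and red cells, and captured on a droplet platform. The authors made the deposited counts, which are UMI counts per gene and barcode, with Cell Ranger 3.1.0 on a filtered GRCm38 annotation, per the submitters' processing notes and the study's methods. No batch or date is given in the labels.

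Barcodes were kept with at least 1000 UMIs, a fixed minimum, and with UMIs and mitochondrial share at most 3 median absolute deviations above the median. Capillary, arterial, venous and non-endothelial cells were selected by marker UMIs as the results state, and doublet calls (Scrublet, expected rate 0.08, in scanpy 1.11.5) were removed only in an alternative. UMIs were summed per mouse and tested in R 4.3.3 with edgeR 4.0.16 (filterByExpr, TMM, glmQLFit, glmQLFTest; Benjamini-Hochberg over all genes tested). The age model had no covariate, the inulin model had age, and differences between cell groups were an interaction of age and group with the mouse as a block. DESeq2 1.42.0 was an alternative. CPM of single genes in capillary cells are scaled by TMM factors. CPM of single genes in the other cell groups, of summed lists and of the marker check are not. Thinning drew 2000 UMIs per cell, and left out 393 of 3475 capillary cells as too shallow. The study tests cells, which are not replicates, so sums per mouse were used in its place.

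The members, gene lists, comparison groups and alternatives were chosen with earlier results of these data known. Named genes are the 15 higher and 10 lower called genes of largest change with a mean of at least 10 CPM and no overlap between ages, up to 6 called members and the 3 of highest level in each list, and up to 5 called genes per direction and cell group for differences. On simulated counts with 200 genes changed 2-fold between ages, 96% were recovered with 10 false calls among 12164 genes. With no gene changed, none was called of 12167. The simulation gave every gene the same spread between mice and changed only genes above 10 CPM. The 96% therefore does not describe recovery in the real data, where spread differs by gene and some called genes are lower. Of 55573 gene identifiers 55480 were found in GENCODE vM21. Promoters are from RefSeq.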

Additional observations from a re-analysis of the deposited data

Results flagged for a closer look

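Age effects that differed between capillary and other cells of the same mice by the interaction test (edgeR, Benjamini-Hochberg adjusted) were picked out here. All values are differences of log2 fold changes, capillary minus the other cells. Against arterial cells *H2-Q7* differed by 1.15 (SE 0.13, adjusted p = 0.000749), *Slc1a2*, an astrocyte glutamate transporter, by 0.73, and *Vwf* by 0.61. *Fmo2* differed by -0.69, *Adm*, which encodes the vasodilator adrenomedullin, by -0.92, and *Alas2*, a heme synthesis gene of red cell precursors, by -5.80. All *Alas2* UMIs of the aged mouse fed 0% came from 1 capillary cell.

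Against venous cells the hemoglobin genes *Hbb-bt* (4.92), *Hbb-bs* (3.25), *Hba-a1* (3.06) and *Hba-a2* (3.02) differed. *Hbb-bs* was at 5889, 1071, 1870 and 4368 CPM in capillary cells, with no order by age, and 1 cell held 87.5% of its UMIs in the aged mouse fed 0%. *Igkc* differed by 2.29, *Slc26a10* by -1.11 (its rise of 0.65 in capillary cells was called in 6 of 13 alternatives) and *Cd74*, the class II invariant chain, by -2.28. A single capillary cell held 51.1% of *Cd74* UMIs in the adult mouse fed 0% and 60% in the aged mouse fed 5%.

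Against non-endothelial cells the interferon genes *Ifi44* (-4.19), *Ifit1* (-2.76), *Iigp1* (-2.62) and *Usp18* (-2.58) and the stress factor *Atf3* (-2.64) lay lower in capillary cells. So did the heat shock genes *Hsph1* (-1.38), *Dnajb1* (-0.69), *Hspb1* (-0.66), *Hsp90aa1* (-0.64), *Hsp90ab1* (-0.64), *Dnaja1* (-0.60) and *Hspa8* (-0.53, short of the 1.5-fold limit). *Pomc* (3.62), *Stmn2* (2.49), *Islr2* (2.30), *Fbln2* (1.58) and *Wnt5a* (1.51) lay higher. *Pomc* was at 142, 3.73, 4.65 and 5.26 CPM in non-endothelial cells, so the adult mouse fed 0% sets that difference, and at 30.4, 28.7, 51.6 and 50.3 CPM in capillary cells, where its rise of 0.79 was not called by DESeq2 (adjusted p = 0.0723).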

How the results depend on the processing

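The count of genes higher with age was 115, and 46 with DESeq2, 241 without a filter on low counts, 209 without the arterial, venous and *Plvap* limits and 85 to 160 with 1 mouse left out. The count lower was 88, and 41 with DESeq2, 185 without the filter, 142 by adjusted p alone and 58 (without the adult mouse fed 0%) to 144 (without the adult mouse fed 5%). After alternatives added once the data had been seen, 78 lower genes were left without those matched by scaled choroid plexus RNA and 111 higher genes without those matched by scaled microglia RNA. The microglia scaling used the C1q level, which the selection capped, so the 111 are a description only. Inulin called 0 genes, 45 without the filter, 12 with RLE size factors and 0 to 4 with 1 mouse left out. The 4, named after their values were seen, were *Cxcl10*, *Lyz2*, *Chil3* and *Ccn2*, all lower, without the adult mouse fed 0%. Differences of the age effect numbered 7 against arterial cells (11 after thinning, 16 to 47 with 1 mouse left out), 33 against venous cells (11 and 40 to 148) and 638 against non-endothelial cells (274 after thinning). The cause of these shifts was not tested. The capillary share differed by 0.971 percentage points with all endothelial cells as denominator and by -2.90 to 0.303 with 1 mouse left out.

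Of 50 named genes called with age, genes of the selection left out, 34 were called under every alternative run and 0 changed sign. DESeq2 called 12 fewer, thinning and cells with no C1q UMI each 6 fewer, leaving out the adult mouse fed 0% or the aged mouse fed 5% each 5 fewer, and no vessel limits 4 fewer. With diet as a covariate, which pairs the mice of a diet, age gave 93 genes higher and 73 lower. Depth limits genes of few UMIs: the capillary sums hold 3170490 to 5559240 UMIs a mouse.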

Other observations

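Among transcripts encoded by mitochondrial DNA, *mt-Atp6* was at 916, 1029, 2197 and 1346 CPM in capillary cells (log2 fold change 0.86, SE 0.17, adjusted p = 0.0266 by edgeR) and *mt-Co3* at 50.3, 55.9, 122 and 75.0 CPM (0.85, SE 0.18, adjusted p = 0.037). Both were named after their values were seen, and for both the aged mouse fed 0% inulin was the highest. None of the 68 nuclear respiratory chain genes was called, and their median was 0.05. The red cell genes varied by mouse and not by age, from 2008 to 11004 CPM.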
